A study of Mus musculus with 2 samples.

Results

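The nuclear genes of oxidative phosphorylation encode most subunits of the respiratory chain and of ATP synthase. They were taken as the protein-coding genes of the mouse annotation GENCODE M21 whose symbols begin with Nduf followed by a, b, c, s or v, are Sdha to Sdhd or Cyc1, or begin with Uqcr, with Cox4 to Cox8 and a subunit letter, or with Atp5. The rule took 95 gene records of 21938 on chromosomes 1 to 19, X and Y. These carry 94 symbols, because Atp5o has a pair of records. A total of 87 were counted as subunits by symbol alone, with Cox7a2l and both Atp5o records among them. The other 8, Ndufaf1 to Ndufaf8, encode assembly factors of complex I and were counted apart.

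Their promoters were read in DNase-seq data from mouse hippocampus. The enzyme DNase I cuts accessible chromatin, peaks are sites with many cuts, and footprints are short stretches within them that were cut little, as under a bound protein. The tissue, labelled as a layer of the hippocampus, came from female B6CASTF1/J mice aged 8 to 10 months, a first-generation cross of a C57BL/6 and a CAST strain. The 1 group held 2 libraries, labelled biological replicates 1 and 2 and called library 1 and library 2 here, each from a pool of 2 biosamples. There was no treated or control arm, and no test between conditions could be made. The labels give both libraries the same donor entry and leave unsaid if separate animals went into each pool, so the spread between the libraries may be partly technical.

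In cells with mitochondria, complexes I and II pass electrons from NADH and succinate to ubiquinone, complex III passes them to cytochrome c, and complex IV passes them to oxygen. Complexes I, III and IV pump protons across the inner membrane, and complex V, ATP synthase, uses the gradient to make ATP. The subunits come from the nuclear and the mitochondrial genome, and several nuclear subunits exist as isoforms that are known from muscle, testis, lung or oxygen-starved cells. Neurons draw most of their ATP from this pathway. Promoters of these genes are known for binding sites of NRF1, of ETS factors such as GABPA, and of YY1, which are general activators of genes for mitochondria.

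Most of these promoters were open in both libraries, and the exceptions were nearly all tissue isoforms. A peak touched the window of 500 bp on either side of a transcript start in both libraries in 88 of the 95 records, which is 92.6% (95% Wilson interval 85.6 to 96.4, counting error only). Over all 21938 protein-coding genes the share was 59.2%. The other 7 records had no promoter peak in either library, and no record had one in 1 library alone. Of the 87 subunit records, 80 had a peak in both, or 92.0%.

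The deposited signal gives the height of a peak, and the value of a gene here is that of the highest peak in its window. In library 1 the median over the 88 genes was 3.07, and in library 2 it was 3.65. The median of the means over the libraries was 3.42, which lies at percentile 67.6 of all genes with a peak in both and is 1.49 times their median of 2.30. A total of 67 of the 88 lay above that median and 29 above the upper quartile of all genes. Only genes with a peak enter these medians, in the members as in all genes. The data come from bulk tissue, so fewer cells with an open promoter and less cutting per cell cannot be told apart.

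All signal values lay within 0.05 of a whole multiple of 1 fixed step in each library, as a scaled count would be, although the sources used here do not say what it stands for. The peaks of these genes spanned 107 to 2179 steps in library 1, with a median of 506. In library 2 they spanned 85 to 1390 steps, with a median of 458. Library 1 listed 98902 peaks in all and library 2 listed 130199. The tissue label was set against marker genes: all 8 markers of hippocampal neurons were open in both libraries, against 59.2% of all genes. Their median signal was 1.49, which is 0.648 times that of all genes, and 2 of the 8 lay above the all-gene median. Of the markers of other tissues, 2 of 12 of skeletal and heart muscle and 0 of 10 in the testis list were open in both. Of 8 markers of vessel and mural cells, 1 was.

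**Figure D1:**
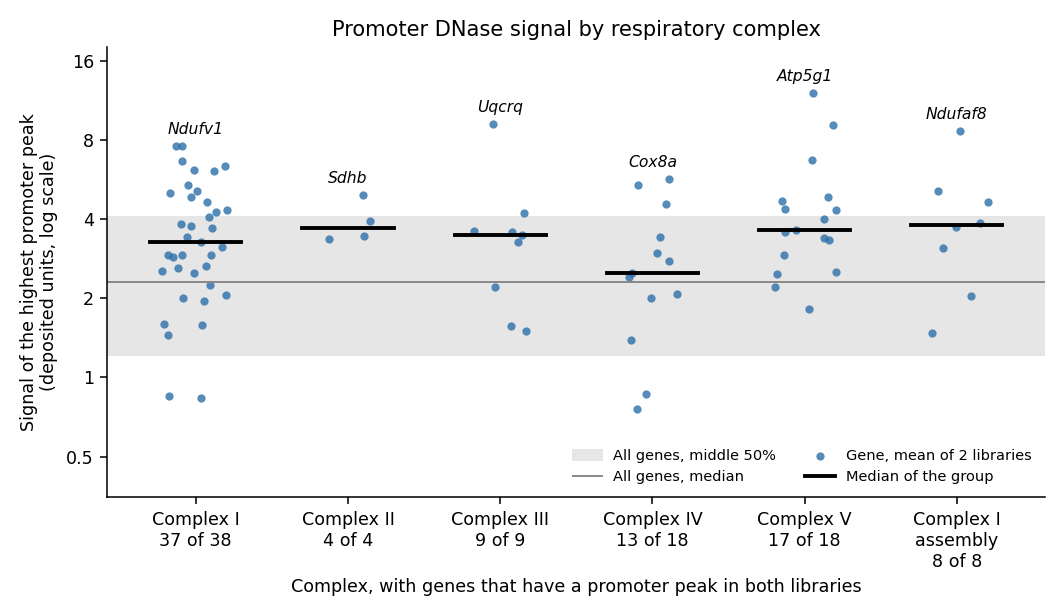
Signal of the highest promoter peak (deposited units, log scale) for each gene with a peak in both libraries, as the mean of the 2 libraries, by complex. Complexes follow the gene symbol, with Ndufa4 in complex I. Points are genes, black lines are group medians, the grey line is the median of all protein-coding genes with a peak in both (2.30) and the band is their middle 50%. The medians of complexes I, II, III and V lie between 3.28 and 3.70, and that of complex IV is 2.50.

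Genes were assigned to complexes by symbol, so Ndufa4 and Ndufa4l2 were counted in complex I. The counts by complex stand against 59.2% of all protein-coding genes, and the medians against 2.30. Complex I, the NADH dehydrogenase, had a peak in both libraries at 37 of 38 genes, all but Ndufa4l2, with a median signal of 3.28. Its 7 nuclear core subunits, which carry the flavin and iron-sulfur clusters or sit next to them, had a median of 6.08, at percentile 89.7 of all genes. The other 30 with a peak had a median of 3.04. Ndufv1, the subunit that binds NADH and flavin, read 8.11 in library 1 and 7.06 in library 2 (mean 7.59 ± 0.74, SD, n = 2). Ndufb5, an accessory subunit of the membrane arm, read 7.99 and 7.16, and Ndufv3, a small accessory subunit, read 6.82 and 6.50. These were the 3 highest genes of the complex, and in each of them the libraries differed by far less than the range across the complex. The peaks of Ndufb5 and Ndufv3 also touched the windows of Mrpl47 and Wdr4, in that order.

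The core subunits were not uniformly high, as genes chosen after their values were seen show. Ndufs3 read 1.45 and 1.75 and Ndufv2 read 1.71 and 2.20, both below the all-gene median in both libraries. The lowest genes of complex I were Ndufc2, an accessory subunit, with 0.648 and 1.02, and Ndufa13, also known as GRIM-19, with 0.915 and 0.787. All 7 core genes had a peak in both libraries, so the core and the accessory genes differed in height among open promoters, a difference for which no test was made.

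Complex II, succinate dehydrogenase, links the citric acid cycle to the chain, and all 4 genes had peaks in both libraries. Sdha, the flavin subunit, read 3.28 and 3.64. Sdhb, the iron-sulfur subunit, read 5.45 and 4.48. The membrane anchors that hold the ubiquinone site were similar in height, with 3.07 and 3.63 at Sdhc and 4.05 and 3.83 at Sdhd. The 4 genes kept within a narrow range of means, 3.35 to 4.96, and all lay above the all-gene median in both libraries.

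Complex III, the cytochrome c reductase, had a peak in both libraries at all 9 genes, with a median of 3.48. Uqcrq, a small subunit near the ubiquinone sites, stood above the rest with 10.6 and 7.84. The hinge protein gene Uqcrh read 4.21 ± 0.29 on average (SD, n = 2). Its highest peak covered none of its starts in either library and also touched the window of Lrrc41. Uqcrfs1, the Rieske iron-sulfur protein, read 3.42 and 3.76. At the low end were Uqcrc2, a core protein, with 1.35 and 1.65, and Cyc1, cytochrome c1, with 1.71 and 1.43. The nuclear subunits of this complex that carry electrons, Cyc1 and Uqcrfs1, were thus 1 below and 1 above the all-gene median.

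Complex V had a peak in both libraries at 17 of 18 records and a median of 3.65. Atp5g1, which encodes the ring subunit c, had the highest promoter signal of all 95 records, 13.2 in library 1 and 11.1 in library 2, at percentile 99.7 of all genes. Atp5b, the catalytic beta subunit, read 7.91 and 10.3. Atp5a1, the alpha subunit that forms the same hexamer with it, read 1.84 and 1.81 and was the lowest of the complex. The partners in that hexamer were thus the lowest and the next to highest of the complex. The 5 genes of the catalytic head, alpha to epsilon, had a median of 4.68, and the other 12 with a peak had 3.48. Atp5j2, a membrane subunit, was the next lowest with 2.10 and 2.31.

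Complex IV, cytochrome c oxidase, had a peak in both libraries at 13 of 18 genes, a lower share than in the other complexes. The share was 72.2% (49.1 to 87.5), against 59.2% of all genes. The median signal of the complex, 2.50, was 1.09 times that of all genes. With the signals of all peaks in the window added up in place of the highest, that ratio was 0.919. Cox8a, Cox6a1 and Cox5b led, the last with 5.22 and 3.94. The 5 genes without a peak were all isoforms, and each of the genes known as the general form was open.

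The assembly factors Ndufaf1 to Ndufaf8, which help build complex I and are not part of it, all had peaks in both libraries, with a median of 3.80. Ndufaf8 read 8.68 and 8.62, Ndufaf7, a methyltransferase that acts on a core subunit, read 5.54 and 4.72, and Ndufaf5 read 4.15 and 5.10. Their peaks also touched the windows of Tepsin, Cebpz and Esf1, in that order. The median of the group was 1.65 times that of all genes, and 1.39 times for peaks at no other gene. Ndufaf1 was the lowest with 1.55 and 1.41, followed by Ndufaf6 with 1.98 and 2.11.

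To show what the peaks and footprints lie on, the promoter of the highest gene of each complex is printed as the 170 bases before the principal transcript start and the 30 bases from it. The sequence is that of the reference assembly GRCm38 (mm10), 5′ to 3′ on the strand of the gene, and capitals mark bases covered by a footprint in both libraries. Variants of the crossed strains were not analysed.
Ndufv1 promoter, chr19:4012777-4012976, minus strand: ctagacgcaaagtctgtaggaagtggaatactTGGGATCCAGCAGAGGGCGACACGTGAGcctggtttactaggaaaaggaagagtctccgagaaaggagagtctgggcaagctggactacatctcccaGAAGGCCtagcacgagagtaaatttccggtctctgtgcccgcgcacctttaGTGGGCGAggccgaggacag
Sdhb promoter, chr4:140961033-140961232, plus strand: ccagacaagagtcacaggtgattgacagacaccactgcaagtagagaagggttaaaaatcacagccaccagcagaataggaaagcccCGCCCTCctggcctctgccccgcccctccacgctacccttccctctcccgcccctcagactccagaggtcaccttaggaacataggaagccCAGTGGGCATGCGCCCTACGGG
Uqcrq promoter, chr11:53430798-53430997, minus strand: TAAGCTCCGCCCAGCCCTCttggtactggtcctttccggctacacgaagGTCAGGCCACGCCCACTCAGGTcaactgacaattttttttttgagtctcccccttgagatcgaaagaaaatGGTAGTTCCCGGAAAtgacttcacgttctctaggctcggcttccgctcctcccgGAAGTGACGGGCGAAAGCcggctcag
Cox8a promoter, chr19:7217587-7217786, minus strand: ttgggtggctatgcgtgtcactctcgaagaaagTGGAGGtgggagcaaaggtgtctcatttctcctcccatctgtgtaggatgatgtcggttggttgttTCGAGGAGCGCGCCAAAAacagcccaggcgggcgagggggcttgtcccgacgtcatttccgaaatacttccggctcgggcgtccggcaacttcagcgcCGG
Atp5g1 promoter, chr11:96075641-96075840, minus strand: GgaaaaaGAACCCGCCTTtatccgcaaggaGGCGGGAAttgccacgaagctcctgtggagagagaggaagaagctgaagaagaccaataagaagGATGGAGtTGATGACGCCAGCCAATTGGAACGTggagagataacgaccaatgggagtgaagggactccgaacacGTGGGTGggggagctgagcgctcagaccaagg
All 5 held footprints shared by the libraries. Uqcrq had the most shared bases, 74 of 200 in 4 stretches, and Cox8a the fewest, 27 in 3. In Ndufv1 the longest shared stretch holds the E-box letters CACGTG. In Uqcrq the last stretch covers part of the ETS letters CCGGAAGT just after the start base. The highest peak of Atp5g1 lay upstream of its start, so its sequence shows only the part of that peak nearest the start.

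The tissue isoforms gave the clearest contrast within the genes. The sets compared hold 19 genes, of which 13 had a peak in both libraries (68.4%, 46.0 to 84.6). Outside the sets it was 75 of the 76 records (98.7%), and over all protein-coding genes 59.2%. All 6 isoform genes without a peak, Cox4i2, Cox6a2, Cox7b2, Cox8b, Cox8c and Ndufa4l2, are known as forms of muscle, testis, lung or oxygen-starved cells. Among the sets, no gene known as the general form lacked a peak. Of the 6, Cox6a2 lies at chr7:128205435-128206387 and Cox8b at chr7:140898945-140900446, both on the minus strand. Cox4i2 lies at chr2:152754173-152765037, Cox8c at chr12:102899316-102900526 and Ndufa4l2 at chr10:127514967-127517154, all on the plus strand. Cox7b2 spans chr5:71442824-71548205 on the minus strand.

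**Figure D2:**
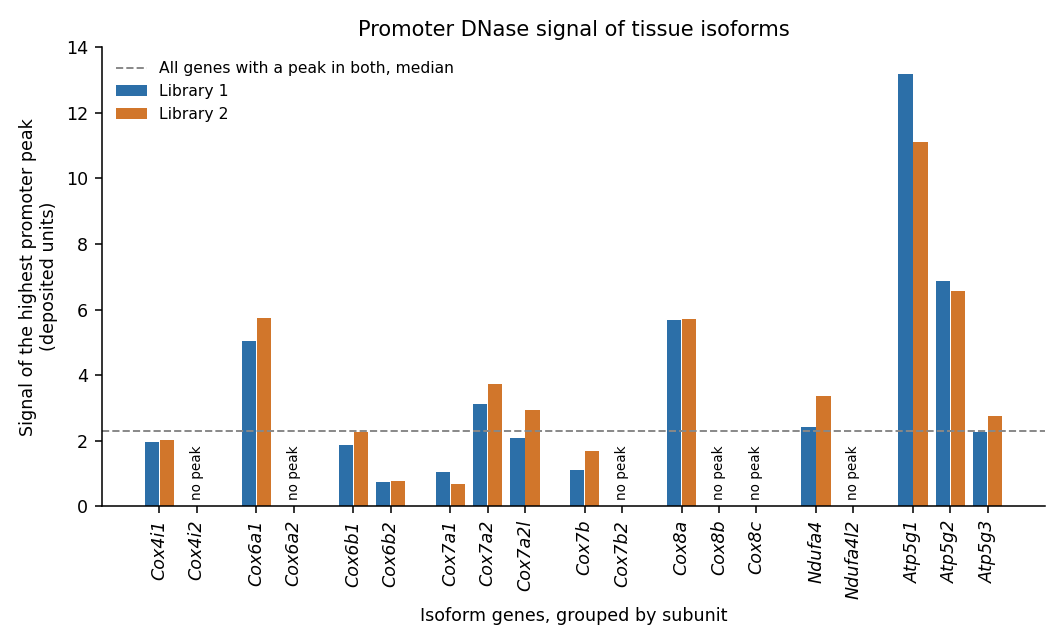
Signal of the highest promoter peak (deposited units) in library 1 and library 2 for the 19 isoform genes, grouped by subunit. Bars start at 0, the dashed line is the median of all genes with a peak in both libraries (2.30), and genes marked as having no peak had none in either library.

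Cox4i1, the general form of the largest nuclear subunit of complex IV, read 1.96 and 2.03, and Cox4i2, known from lung and from low oxygen, had no peak. Cox6a1 read 5.05 and 5.74, and Cox6a2, the heart and muscle form, had no peak. The same held for Cox8a, with 5.67 and 5.71, against Cox8b, a muscle form, and Cox8c, a testis form. Cox7b, on the X chromosome, read 1.10 and 1.68, and its testis relative Cox7b2 had no peak. Ndufa4 is named for and counted in complex I and is now known as a subunit of complex IV. It read 2.41 and 3.36, and Ndufa4l2, known from cells at low oxygen, had no peak.

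In other sets the tissue form had a weak peak and not none. Cox7a1, the heart and muscle form, read 1.05 and 0.676, whereas Cox7a2, the general form, read 3.12 and 3.73 and Cox7a2l, which joins complexes III and IV into supercomplexes, read 2.07 and 2.93. Cox6b2, the testis form, read 0.745 and 0.771, and its partner Cox6b1 read 1.87 and 2.28. In both sets every value of the tissue form lay below every value of its partners. With the outermost start alone Cox7a2l read 0.996 on average, near the 0.865 of Cox7a1, and that gap was lost. Cox6b2 and Cox7a1 were the lowest of complex IV, with Cox6b2 at percentile 11.8 of all genes with a peak. In the stricter peak lists Cox7a1 no longer had a peak in both libraries, and Cox6b2 still did.

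The 3 genes for subunit c behave differently, since they encode the same mature protein behind different import sequences. All had a peak in both libraries. Atp5g1 was the highest, Atp5g2 read 6.86 and 6.58, and Atp5g3 read 2.27 and 2.76. The order was the same in both libraries, and the values of the genes did not overlap. With the outermost start alone, in place of every annotated start, Atp5g2 read 1.16 on average and lay below Atp5g3, at 2.52.

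Cox8a and Cox8b are shown as a pair with opposite states. The Cox8a promoter is printed above, and that of Cox8b, in the same coordinates relative to the start, reads as follows.
Cox8b promoter, chr7:140900417-140900616, minus strand: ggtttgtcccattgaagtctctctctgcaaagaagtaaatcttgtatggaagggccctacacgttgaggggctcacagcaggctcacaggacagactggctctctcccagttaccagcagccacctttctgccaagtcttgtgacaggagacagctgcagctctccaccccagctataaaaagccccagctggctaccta
It has no capitals because no footprint of both libraries touched it. The stretch held 1 CpG, against 17 in the 200 bases of Cox8a.

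The 7 records without a peak held no sign of weaker sites in the other deposited lists. The lists of bases with a false discovery rate below 0.05 held no base within 500 bp of the principal start of any of the 7 in either library, and no footprint lay there. Of the 7983 protein-coding genes without a promoter peak, 97.9% likewise had no listed base there in either library. Footprints were not counted for them. The nearest peaks lay 1827 to 11487 bp from a start. Cox6a2 and Ndufa4l2 gained a peak when the window was widened to 2000 bp, the nearest for Ndufa4l2 reading 2.49 and 3.51.

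The remaining record without a peak is the second Atp5o record, ENSMUSG00000116933.1, at chr16:91684398-91926982 on the minus strand. It overlaps the main Atp5o gene, whose own promoter read 3.99 and 3.16, and the peak nearest to its start, 4539 bp away, had those same values. It was left in the counts of complex V because the rule takes it.

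Marker genes of other tissues and of vessel and mural cells give the levels to set beside these isoforms. Of the 12 muscle markers, Acta1 and Ckm, which encode the main actin and creatine kinase of skeletal muscle, had no promoter peak in either library. Mylpf, a muscle myosin light chain, read 6.99 and 6.16 at a peak that also touched the window of Tbc1d10b, and Pygm, muscle glycogen phosphorylase, read 0.666 and 0.549. None of the 10 genes in the testis list, which also holds the oocyte factor Figla, had a promoter peak. Of the 8 vessel and mural markers, Kdr, a receptor of the endothelium, read 0.333 and 0.382 and no other had a peak in both. That list was chosen to set beside Cox4i2 and Ndufa4l2. The part of muscle, testis, vessel and mural cells in the isoform values was not tested.

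Promoters without a peak were poor in CpG. The ratio of observed to expected CpG within 500 bp of the principal start had a median of 0.28 over the 7 records without a peak and 0.73 over the 88 with one, the same as the 0.73 of all genes with a peak in both. In the upper 2 quintiles of all genes by this ratio, all 44 and all 19 member records had a peak in both libraries, where 89.5% and 93.6% of all genes did. In the second quintile from the bottom 2 of 7 had one, Cox7a1 and Atp5j2, where 30.0% of all genes did. The highest peak of Atp5j2 lay at another annotated start than the principal one, so its ratio does not describe the open site. Atp5d and Atp5f1 are further such cases. In the middle quintile it was 23 of 25, against 73.9%. The genes without a peak there were Cox7b2 and Cox8c.

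**Figure D3:**
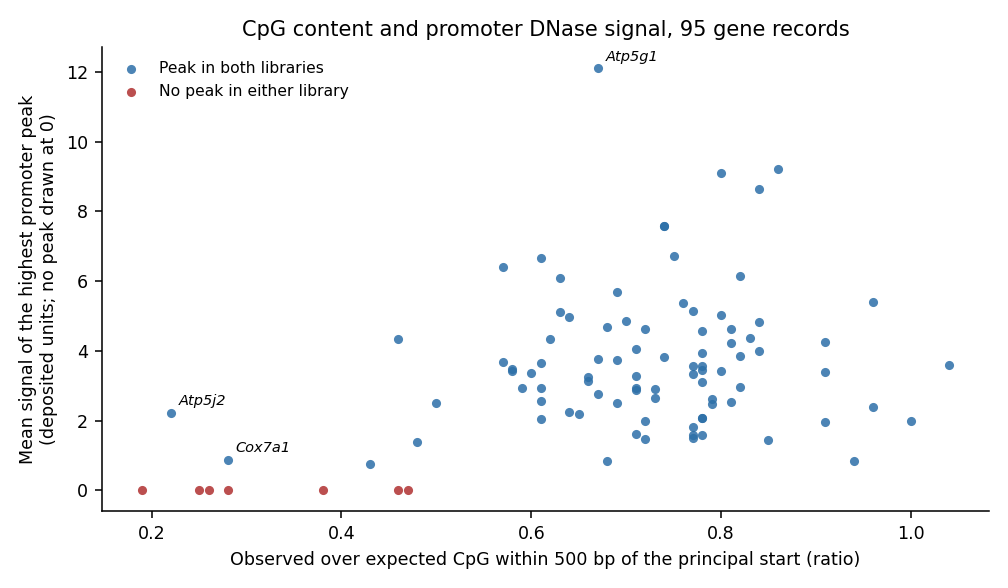
Observed over expected CpG within 500 bp of the principal start and mean signal of the highest promoter peak for the 95 records. Blue points have a peak in both libraries, and red points, drawn at 0, have no peak in either. The red points all lie at a ratio of 0.47 or lower.

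Among open promoters the height was lower where CpG was scarce. Over all genes the median signal was 1.08, 1.16, 1.92, 2.71 and 2.91 from the lowest quintile to the highest. Members had medians of 1.54, over 2 genes, then 3.35, 3.44 and 3.86 in the upper 4 quintiles, each above that of all genes, and none lay in the lowest.

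The X chromosome carries 3 of the genes, Ndufa1, Ndufb11 and Cox7b. Their median signal was 1.45, and none lay above the all-gene median. Over all X-linked genes with a peak the median was 1.34, against 2.36 over autosomal genes, so these genes were low as X-linked genes in general were. Both libraries came from females.

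The peaks of these genes sat close to the start. The highest peak covered an annotated start in 81 of 88 genes in library 1 (92.0%) and 80 in library 2 (90.9%), where 74.8% and 76.5% of all genes did. A single peak lay in the window in 67.0% and 59.1% of the genes, against 48.7% and 47.0% of all genes. Median peak width was 240 bp in both libraries, close to the 260 and 240 bp of all genes. Smoothed over 21 bp, peak coverage reached 89.3% and 91.1% of the 88 promoters, against 70.4% and 72.9% of all.

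**Figure D4:**
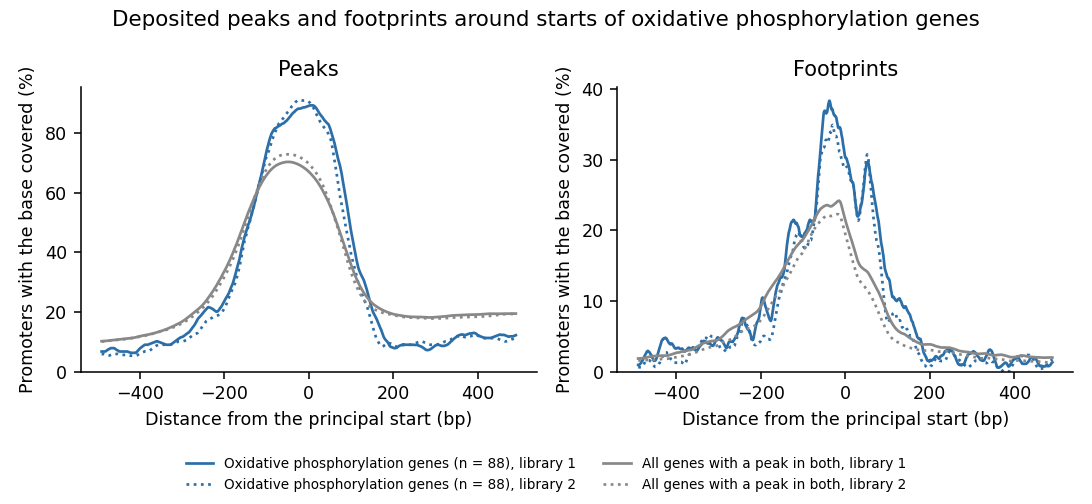
Share of promoters in which a base is covered by a deposited peak (left) or footprint (right), in %, by distance from the principal transcript start in bp, smoothed over 21 bp. Blue lines are the 88 oxidative phosphorylation genes and grey lines all genes with a peak in both, solid for library 1 and dotted for library 2. Footprint coverage of the 88 reaches 38.3% and 34.9%, above the 24.2% and 22.3% of all genes.

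Footprints were set closely within these peaks. Library 1 placed 443 footprints in the 88 highest peaks, or 5.03 per peak, and library 2 placed 404, or 4.59. Per 100 bases these are 1.90 and 1.88, against 1.67 and 1.58 over all genes. Of the footprints of library 1, 69.1% overlapped one of library 2, and 75.7% the other way, where all genes gave 63.2% and 70.6%. When promoters were sorted into quintiles by signal, the middle quintile held 5.12 and 4.65 footprints per peak in members and 4.97 and 4.46 over all genes. In the highest quintile members held 5.24 and 5.28 and all genes 5.73 and 5.60, so at a like signal the counts were close.

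Footprint coverage was highest just upstream of the start, at -38 bp in library 1 and -30 bp in library 2. Within 100 bp downstream it averaged 24.1% and 22.2%, against 14.3% and 11.8% over all genes. Among complexes, footprints per peak ran from 4.44 in complex III to 5.75 in the assembly factors in library 1, with the same groups at the ends in library 2.

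Sequence motifs were searched on both strands in 300 bases, 250 before the principal start and 50 from it. NRF1, a factor long tied to respiratory genes, was searched as CGCATGCG, which reads the same on both strands. It matched in 8 of the 88 promoters, or 9.09% (4.68 to 16.9), against 3.67% of all genes with a peak in both and 2.66% of all genes. All 8 matches lay in a footprint in both libraries, where 79.4% of the matches of all genes did, or 82.9% of those within peaks. The 8 genes came from complexes I, III, IV and V and the assembly factors. Each is given with the motif in capitals and 10 bases on either side, 5′ to 3′ on the gene strand, in GRCm38 coordinates.
Ndufa11 NRF1 site, chr17:56717693-56717720: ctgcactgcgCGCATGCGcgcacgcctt
Uqcr11 NRF1 site, chr10:80406809-80406836: atcgccttcaCGCATGCGctatacgtct
Cox6a1 NRF1 site, chr5:115349102-115349129: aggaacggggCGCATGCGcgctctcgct
Atp5g2 NRF1 site, chr15:102671071-102671098: gctccggccgCGCATGCGcagagccttc
Atp5k NRF1 site, chr5:108434431-108434458: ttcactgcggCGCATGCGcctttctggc
Atp5l NRF1 site, chr9:44920966-44920993: aaaccaataaCGCATGCGcatttccccc
Ndufaf4 NRF1 site, chr4:24897961-24897988: cagatgtctgCGCATGCGcctgtgcgga
Ndufaf5 NRF1 site, chr2:140170653-140170680: gtcccgttggCGCATGCGcctaatagaa
A match is a description of letters and not a measure of binding, although here each one also lay under a deposited footprint. The first base of the match lay between -241 bp, in Atp5l, and 40 bp, in Atp5g2, with the start base counted as 1. When the promoter peaks themselves were searched, 12.5% of the members and 4.71% of all genes matched.

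YY1, a zinc finger factor that also binds at or just after starts, was searched as AAGATGGC and matched in 9 of the 88, or 10.2% (5.47 to 18.3), against 4.54% of all genes with a peak in both. With the peaks searched, the shares were 21.6% and 5.89%. Of the 9 matches, 8 lay downstream of the start on the gene strand (88.9%), where 40.4% of the matches of all genes did. In 7 of the 9 the ATG within the letters was an annotated start codon, against 27.4% of the matches of all genes. The letters and the translation start coincide there. Of these, 4 that hold the start codon are printed in the same way, with the last G of ATG as the sixth capital.
Ndufs7 YY1 site, chr10:80249463-80249490: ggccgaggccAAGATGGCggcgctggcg
Ndufa9 YY1 site, chr6:126849098-126849125: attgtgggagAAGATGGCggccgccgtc
Ndufb8 YY1 site, chr19:44555387-44555414: ggagaaggtgAAGATGGCtgccgcccgg
Sdhc YY1 site, chr1:171150564-171150591: gccggaactcAAGATGGCtgcgttcttg
Complex I held 6 of the 9 genes. Only 2 of the 9 matches, in Ndufs7 and Ndufaf8, lay in a footprint of both libraries (22.2%), close to the 25.9% of the matches of all genes. In library 1 alone it was 55.6% and in library 2 alone 22.2%, each against 36.8% of the matches of all genes. With every base of the match required in a footprint it was 0 of 9, against 4.35% of the matches of all genes.

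**Figure D5:**
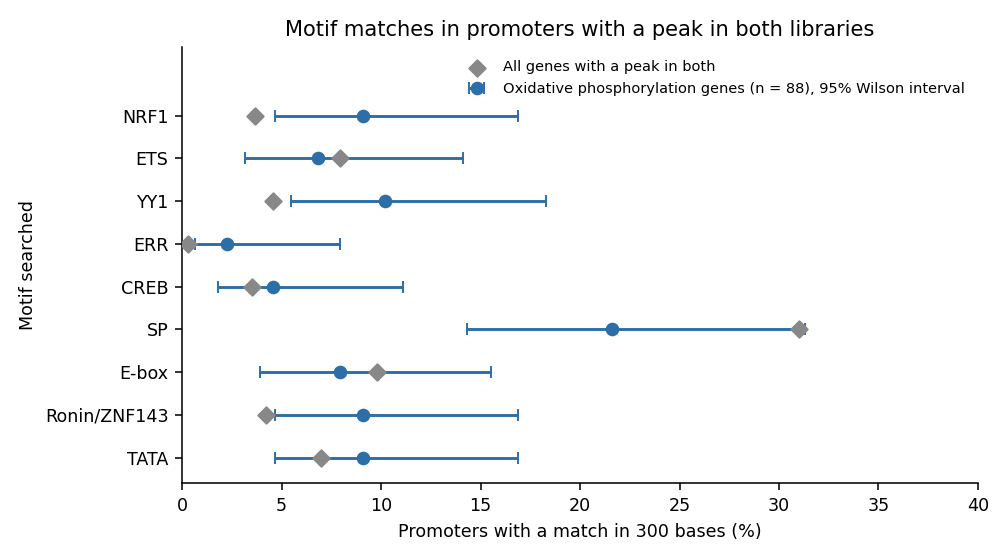
Share of promoters with a match to each motif in 300 bases, in %. Blue points are the 88 oxidative phosphorylation genes with their 95% Wilson interval, which covers counting error only, and grey diamonds are all genes with a peak in both libraries. The diamonds for NRF1, YY1, ERR and Ronin/ZNF143 lie below the interval, and that for SP lies inside it at its upper end.

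The ETS letters CCGGAAGT, read by GABPA and its relatives, matched in 6 of the 88 (6.82%, 3.16 to 14.1), which is below the 7.91% of all genes with a peak in both. In the peaks themselves the order turned, with 10.2% of members and 9.04% of all genes. Complex III held 3 of the 6 genes, Uqcr11, Uqcrh and Uqcrq. Of NRF1, ETS and YY1, 1 alone was found in 19 of the 88 promoters, and 67 (76.1%) held none, against 84.9% of all genes. The other two, Uqcr11 and Atp5h, held a pair of them.

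Among the other motifs, the letters of Ronin/ZNF143, ACTACAA, matched in 9.09% of members and 4.21% of all genes. ERR, the receptor site TCAAGGTCA, matched in 2 genes, Sdhd and Atp5g3 (2.27%, against 0.270%), and neither match lay in a footprint. The GC box of SP factors, GGGGCGGG, was found in 21.6%, below the 31.0% of all genes. Of its 25 matches, 18 lay in a footprint of both libraries (72.0%, against 47.4%), some of them overlapping one another in Cox4i1. With every base required it was 44.0%, against 28.4%. Among matches within peaks of both libraries, 18 of 22 lay in such a footprint (81.8%, against 63.9% of the matches of all genes). CREB, TGACGTCA, matched in 4.55% against 3.50%, the E-box CACGTG in 7.95% against 9.81%, and TATAAA in 8 of 88 against 909 of 12982. Of the 7 records without a peak, 3 held TATAAA, and no test was made on so few.

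Many of these promoters lie between a pair of genes. The highest peak also touched the window of another protein-coding gene in 35 of the 88 genes, or 39.8% (30.2 to 50.2), against 19.2% of all genes with a peak in both. All 35 had a neighbour on the opposite strand, and 17.2% of all genes had such a neighbour. The signal belongs to both genes and cannot be assigned to either. Shared and unshared peaks had similar medians, 3.57 and 3.28, whereas over all genes shared peaks were higher, 3.45 against 2.07.

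A few of the neighbours, chosen after they were seen and not counted by function, are described here. Ndufb5 shared its peak with Mrpl47, and Ndufs6 with Mrpl36, both genes for proteins of the mitochondrial ribosome. Sdhd shared with Timm8b, an import chaperone, Ndufa7 with Rps28, a ribosomal protein, and Ndufs1 with the elongation factor gene Eef1b2, whose start lay 3 bp away. Atp5j shared with Gabpa, which encodes the ETS factor named above, at starts 31 bp apart. Another neighbour is known from another tissue, Gdf9, a growth factor of the oocyte, beside Uqcrq.

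The libraries ranked the genes alike. Of the 88 genes, 62 (70.5%) were higher in library 2, as were 69.5% of all genes, and the median log2 ratio of library 2 to library 1 was 0.16 against 0.14. All 88 lay within 1 log2 unit of the all-gene median. Across the 88 genes, which share their libraries and are not independent, the log2 signals had a Pearson r of 0.924 and a Spearman rho of 0.920. Over all genes these were 0.970 and 0.975. The highest peaks of the libraries overlapped in 87 of the 88 (98.9%), and in 94.9% of all genes.

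The exception was Ndufa11, an accessory subunit of complex I, whose highest peak in library 1 (2.78) and in library 2 (5.75) were separate peaks. The peak of library 2 covered no start and had its midpoint at -606 bp from the nearest start. Ndufa11 had the largest ratio, 0.91 above the all-gene median on the log2 scale, which thus compares different peaks. Ndufs4, another accessory subunit, read 1.48 and 3.02 at the same peak, 0.88 above. Cox7a1 lay the other way, at -0.79.

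The genes that assemble, feed and regulate the pathway were read in the same way. Of 40 assembly factors of complexes I to V outside the rule, 39 had a promoter peak in both libraries, with a median of 3.48. Pet100, for complex IV, read 9.14 and 7.71 at a peak that also touched the window of Xab2. Tmem126b, for complex I, read 8.06 and 7.11 at a peak that also touched a window of Dlg2. Sdhaf1, which helps insert the iron-sulfur clusters of Sdhb, had no peak.

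Among 15 regulators, 14 had a peak in both (93.3%, against 59.2% of all genes). Zfp143 read 17.0 and 11.8 and Sp1 read 15.2 and 10.8, both general activators. Ppargc1a, the coactivator PGC-1alpha, had a peak of 0.618 in library 1 alone. All 14 genes for copying and transcribing mitochondrial DNA had peaks, led by Polg, its polymerase, with 6.66 and 7.29, and Tfb1m with 6.95 and 5.73.

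The carriers repeated the contrast of the isoforms. Cycs, the general cytochrome c, read 7.96 and 7.67, and its testis form Cyct had no peak. Of 9 genes in this list 8 had peaks (88.9%, 56.5 to 98.0). The highest was Chchd4, an import protein of the intermembrane space, with 9.29 and 7.11 at a peak that also touched the window of Tmem43. Of 7 transporters 6 had peaks (85.7%, 48.7 to 97.4). Both intervals hold the 59.2% of all genes. Slc25a3, the phosphate carrier, read 5.57 and 5.45, Slc25a4, an ATP and ADP exchanger, read 4.08 and 4.38, and Slc25a31, the exchanger of testis, had no peak.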

How the data were processed

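For each of the 2 libraries the authors deposited a larger and a smaller peak list, a footprint list and a list of bases with a false discovery rate, each from the mm10 alignments of that library alone, per the labels and the deposited notes. Aligner, peak caller, footprint tool and versions: not given in the sources used here. Peak heights are in a deposited signal unit without negative values. The footprint value and the false discovery rate are p-value type units in the deposited lists, and the footprints carry 0.01 in every row. Reads of a strain cross were placed on the reference assembly, and any effect at sites that differ between strains was not tested.

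Overlaps needed 1 bp and used the larger list, with 500 bp on either side of every GENCODE M21 transcript start. The principal start was that of the best-ranked transcript. Peaks counted for every gene they touched. Shares have 95% Wilson intervals, which cover counting error only. Python 3.11.15, numpy 2.4.6, scipy 1.17.1 and bedtools 2.31.1 were used, and the overlap and motif searches were tested on simulated data. No test across genes was made. Members and lists were chosen with earlier results of these data known. Named were all isoforms and Sdh genes, the 3 highest and 2 lowest genes of each other group, genes without a peak, the 3 largest library ratios and, of other lists, the 2 highest genes and those without a peak. Some values are not reported here. Alternatives were the smaller list, windows of 2000 and 100 bp, the outermost annotated start alone, summed or scaled signal, unshared peaks, other motif windows, full overlap and each library left out.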

Additional observations from a re-analysis of the deposited data

How the results depend on the processing

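No paired analysis was possible because the series has 1 group. The share of members with a peak stayed between 88.3% and 94.7% under all 8 alternatives, always above all genes, and with each library left out it was 92.6%. The ratio of the member median signal to that of all genes was 1.49. It was 1.22 with summed peaks, 1.34 with the stricter list, 1.43 with the 100 bp window and with the outermost start alone, 1.58 for peaks at no other gene, and 1.48 to 1.56 with each library left out. With summed peaks complex IV turned to 0.919. With the 2000 bp window complex I, the other assembly factors and the regulators reached 100%, and with each library left out the regulators ranged from 93.3% to 100%. Footprints shared at every base fell to 23.6%, against 21.9% over all genes. ETS turned to the higher side with 10.2% in peaks and 12.5% in 500 bp on either side. With those 2 searches YY1 rose to 21.6% and 23.9% and TATAAA gave 4.55% and 21.6%. With 500 bp on either side ERR gave 10.2%, SP 34.1% and Ronin/ZNF143 17.0%. In 500 bp on either side the all-gene shares were higher as well. Causes of these shifts were not tested. YY1 matches in footprints ranged from 22.2% to 55.6% with each library left out, and TATAAA matches were at 10.0%, where the all-gene value moved across it. With every base required in a footprint, YY1 fell to 0, SP fell to 44.0% and CREB stayed at 75% as the all-gene share fell to 66.1%. With the outermost start alone Atp5g2 fell to 1.16 and Cox7a2l to 0.996. Counting error limits shares over few genes, and the 2 libraries limit every spread.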
